A study of Mus musculus with 28 samples.

Results

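H2-Ab1, Itgax, Ccr7 and Ccl22 are the genes of antigen-presenting cells described here. They were taken by symbol from the table of raw barcode counts, in which 72 targets were named. All 4 had values in every one of the 28 samples, as did 55 targets in all when the housekeeping genes are left out. Their levels are given as normalised counts, which are barcode counts divided by a sample factor from 3 housekeeping genes, Actb, Gapdh and Rpl19.

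Monocytes from C57BL/6 donors, either wild type (WT) or Trem1-/-, had been transferred into C57BL/6 CCR2-/- mice, and 1 day later 100 cells of donor origin were sorted out of each recipient's small intestine. WT cells from control intestine, which had no surgery, came from 5 recipients, and WT cells from inflamed intestine, which was surgically manipulated 1 day before the transfer, came from another 5. Trem1-/- cells came from 5 recipients with control and 7 with inflamed intestine, and monocytes of the bone marrow came from 3 non-manipulated mice of each genotype. All intestinal recipients, controls included, lacked CCR2, a chemokine receptor that monocytes need to leave the bone marrow, whereas the marrow cells had not been transferred at all. The labels number the mice, but they do not say whether the donor cells were pooled, so the p-values measure only the spread between these samples. Trem1, the deleted gene, was left blank in every Trem1-/- sample and every marrow sample, and the genotype labels were therefore not checked against it.

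H2-Ab1 encodes the beta chain of I-A, the MHC class II molecule that shows peptides to CD4+ T cells. Itgax encodes CD11c, an integrin subunit carried by dendritic cells and by many tissue macrophages. Ccr7 encodes the receptor that guides dendritic cells along gradients of CCL19 and CCL21 to draining lymph nodes, and Ccl22 encodes a chemokine that attracts T cells bearing CCR4. Monocytes that enter the gut wall are known to lose Ly6C and to gain MHC class II and CD11c as they differentiate into macrophages and related cells.

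Each gene was read by 1 probe pair over 100 bases of a RefSeq transcript. The target of H2-Ab1 lay at positions 165 to 264 of NM_207105.2, that of Itgax at 328 to 427 of NM_021334.2, that of Ccr7 at 756 to 855 of NM_007719.2 and that of Ccl22 at 1097 to 1196 of NM_009137.2. The reference table places H2-Ab1 on chromosome 17, Itgax on chromosome 7, Ccr7 on chromosome 11 and Ccl22 on chromosome 8. RefSeq promoters of the GRCm38.p6 build were matched by symbol for Itgax and Ccl22. The reference held no promoter of H2-Ab1 or Ccr7. Each run is the 250 bases before the start of the gene on its own strand. Capitals mark GGGACTT, the shared start of many NF-kappaB sites, and CCAAT, here in its reverse form ATTGG. Both motifs were searched on both strands, and they do not overlap.
Itgax, chr7:128129300-128129549, plus strand: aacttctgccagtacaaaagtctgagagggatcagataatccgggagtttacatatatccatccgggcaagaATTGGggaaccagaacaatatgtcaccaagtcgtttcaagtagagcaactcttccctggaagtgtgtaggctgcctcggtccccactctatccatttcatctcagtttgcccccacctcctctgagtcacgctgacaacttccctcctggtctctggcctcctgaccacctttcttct
Ccl22, chr8:94745434-94745683, plus strand: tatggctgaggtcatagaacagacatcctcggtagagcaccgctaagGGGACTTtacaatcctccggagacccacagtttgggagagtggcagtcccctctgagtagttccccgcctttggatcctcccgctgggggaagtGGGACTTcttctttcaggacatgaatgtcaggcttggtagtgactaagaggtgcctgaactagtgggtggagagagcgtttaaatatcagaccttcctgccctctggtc
GGGACTT occurred 2 times before Ccl22, 203 to 197 and 109 to 103 bases ahead of the start, and 0 times before Itgax. Of all 32851 promoters of this length, 4.65% held it on either strand. CCAAT occurred 1 time before Itgax, 178 to 174 bases ahead of the start in reverse, and 0 times before Ccl22, against 33.85% of all promoters. A match of letters describes this window only.

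Each sample held between 720570 and 1625959 gene counts in all, and the background limit, which is the mean of the 5 negative control probes plus 2 SD, ran from 16.7 to 59.0 counts. H2-Ab1, Ccr7 and Ccl22 lay above background in 28 of 28 samples and Itgax in 25 of 28. The deposited counts of 14 samples were whole numbers times a multiplier, about 4/3 in 13 and 2 in 1, and those of the other 14 were whole. Every group held both multiplied and unmultiplied mice, and the multiplier was divided out throughout. The control probes were multiplied in only 5 samples, all from WT intestine, and were divided there too. After this division, the geometric mean of the positive control probes in intestine was at most 729.3 in the WT and at least 766.2 in the Trem1-/- samples. The division lowered those WT values, and the gap was not examined without it. A difference of hybridisation and the genotype therefore cannot be told apart in a direct comparison of genotypes in intestine. In marrow the ranges of the genotypes overlapped. Of the marker lists, 6 of 8 monocyte genes were on the panel and all 6 lay above background in every sample. Of 7 macrophage genes, 5 had values, all above background in every sample. Of 7 conventional dendritic cell genes only Irf4 had values, since Flt3 and Zbtb46 were blank, and 0 of the listed genes of neutrophils, T cells, B cells or epithelium were on the panel. Whether the 4 genes were read in dendritic cells among the sorted cells was therefore not tested.

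The 4 genes differed widely in how far their levels moved over the 6 groups. Between the highest and the lowest group mean lay a factor of 1125 for H2-Ab1 and 182 for Itgax, against 6.10 for Ccr7 and 3.82 for Ccl22. H2-Ab1 and Itgax were highest in control intestine, lower in inflamed intestine and lowest in marrow. For H2-Ab1 the order of the means was WT control, Trem1-/- control, WT inflamed, Trem1-/- inflamed, WT marrow and Trem1-/- marrow, and among these neighbours only WT and Trem1-/- marrow did not overlap. For Itgax the first 4 groups came in the same order, neighbouring groups overlapped within intestine and within marrow, and every intestinal sample lay above every marrow sample. Neighbouring groups overlapped at every step for Ccr7, which was highest in Trem1-/- control cells, and for Ccl22, which was highest in WT control cells.

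**Figure D1:**
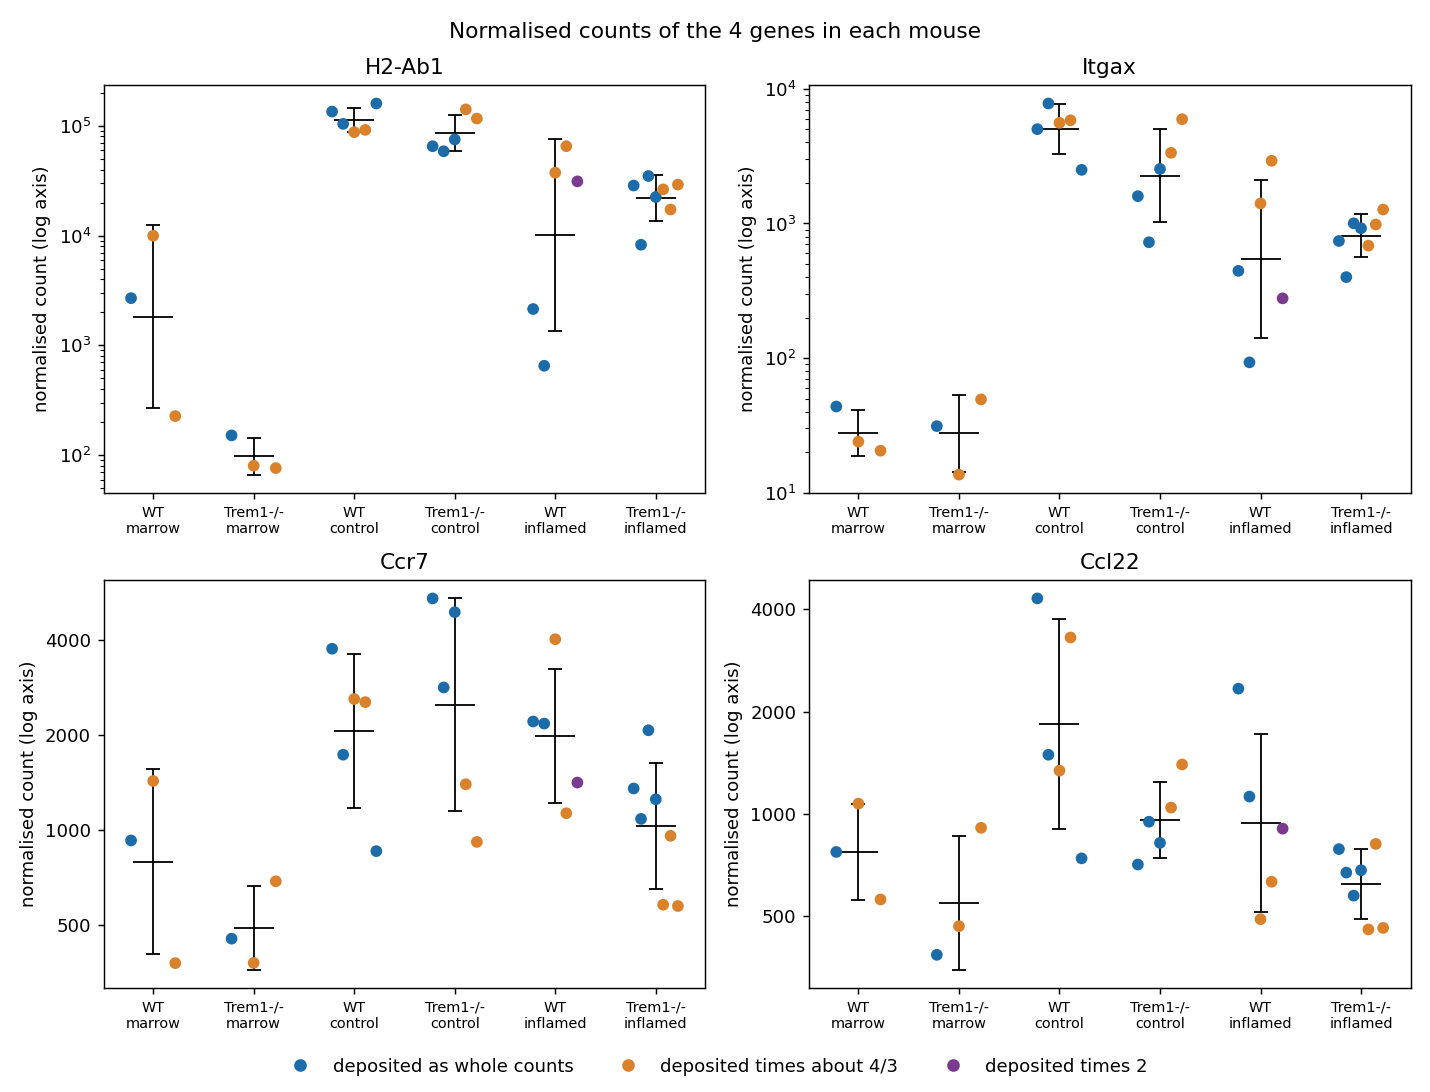
Normalised counts of H2-Ab1, Itgax, Ccr7 and Ccl22 in each mouse on log axes, with 1 point per mouse coloured by the multiplier of the deposited counts, and with the mean and SD of the log2 levels of each group as bar and whiskers. H2-Ab1 and Itgax span far more of their axes than Ccr7 and Ccl22, and the WT inflamed points of H2-Ab1 run from 653 to 65228.

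Inflammation was first compared within WT cells. H2-Ab1 fell from 115620 ± 30823 (SD, n = 5) in control intestine to 27333 ± 26922 (SD, n = 5) in inflamed intestine. The control mice stood at 134856, 104141, 87587, 91794 and 159722 normalised counts. The inflamed mice stood at 2146, 653, 37437, 65228 and 31202. Fewer cells carrying a transcript and less of it per cell cannot be told apart in such pooled cells. Every inflamed mouse lay below every control mouse, but the inflamed mice fell into 2 low ones and 3 at moderate levels. The fitted log2 fold change was -2.08 with an SE of 0.72 (95% interval -3.58 to -0.58, adjusted p = 0.0211 by edgeR's quasi-likelihood test with Benjamini-Hochberg adjustment over 55 genes). The difference of the mean log2 levels, in which the low mice weigh more, was -3.47, and its exact permutation p of 0.0079 was the smallest that 5 against 5 mice allow (two-sided).

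The low mice 1 and 2 were the unmultiplied samples of the WT inflamed group, and mice 3 and 4 were multiplied by about 4/3. H2-Ab1 ran from 653 to 2146 in the former and from 37437 to 65228 in the latter, while the mouse multiplied by 2 stood at 31202. Mice 1 and 2 had total gene counts of 1567612 and 1145075, against 940324 and 921941 in mice 3 and 4. The summed level of the monocyte markers was 337658 and 313315 in mice 1 and 2 and between 230344 and 293357 in the other 3 mice. That of the macrophage markers was 28217 and 7067 in mice 1 and 2 and between 24696 and 45663 in the other 3. The largest group means in the macrophage sum were those of Csf1r (16856), which is on both lists, and Cd68 (10176). The part of these measures in the H2-Ab1 values was not tested. Within the samples multiplied by about 4/3, the fitted log2 fold change of H2-Ab1 was -0.81 (edgeR's adjusted p = 0.0575), and within the unmultiplied samples it was -6.57.

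Itgax in WT cells was 5353 ± 1903 (SD, n = 5) in control and 1030 ± 1175 (SD, n = 5) in inflamed intestine. The control mice had 5023, 7794, 5594, 5848 and 2504 normalised counts, and the inflamed mice had 445, 92.9, 1409, 2925 and 278. Inflamed mouse 4 lay above the lowest control mouse, and the other 4 inflamed mice lay below all controls. Itgax fell, with a log2 fold change of -2.38, an SE of 0.69 and an adjusted p of 0.0076 by edgeR, and with an exact permutation p of 0.0159. Within the samples multiplied by about 4/3 the log2 fold change was -1.40 (edgeR's adjusted p = 0.0506), and within the unmultiplied samples it was -4.24 (edgeR's adjusted p = 0.00222).

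Ccr7 showed no such shift in WT cells. It was 2293 ± 1077 (SD, n = 5) in control intestine, with single mice at 3745, 1729, 2596, 2537 and 856 normalised counts. It was 2185 ± 1125 (SD, n = 5) in inflamed intestine, with single mice at 2203, 2170, 4014, 1128 and 1411. The ranges lay almost on top of each other. The log2 fold change was -0.07 with a 95% interval of -1.13 to 0.99 (edgeR's adjusted p = 0.893), so a change within that interval was not excluded. The sign of the log2 fold change turned under 9 of 25 alternatives.

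Ccl22 in WT cells was 2238 ± 1505 (SD, n = 5) in control intestine, where the mice had 4312, 1492, 1339, 3307 and 738 normalised counts. In inflamed intestine it was 1096 ± 735 (SD, n = 5), with mice at 2337, 1123, 488, 630 and 903. The groups overlapped, and 2 inflamed mice lay below all controls. The log2 fold change of -1.03 (SE 0.46) missed the threshold with an adjusted p of 0.067 by edgeR. It passed under 6 of 25 alternatives, among them the fit without inflamed mouse 1 (-1.51, edgeR's adjusted p = 0.00914) and the fit without control mouse 5 (-1.25, edgeR's adjusted p = 0.0224).

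Of the 4 genes, 2 were thus called lower and 0 higher between inflamed and control WT cells, where 47.3% of the 55 genes tested were called in either direction and 21.8% were called lower. H2-Ab1 was the gene of the 4 whose groups did not overlap, against 12.7% of all genes with no overlap and lower values in inflamed cells. The median log2 fold change was -1.55 over the 4 genes and -0.08 over all genes tested.

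Among Trem1-/- cells, H2-Ab1 was 91301 ± 35789 (SD, n = 5) in control intestine and 23874 ± 8829 (SD, n = 7) in inflamed intestine. The control mice had 65180, 58646, 75123, 141109 and 116446 normalised counts, and the 7 inflamed mice lay between 8261 and 34925, with a median of 26394. The groups did not overlap, with lower values in inflamed cells, as for 12.7% of all genes. The inflamed mice were also close to each other, with a coefficient of variation of 37.0% against 98.5% in WT inflamed cells. H2-Ab1 fell, with a log2 fold change of -1.94, an SE of 0.64 and an adjusted p of 0.0179 by edgeR. Its exact permutation p of 0.0013 was the smallest that 5 against 7 mice allow, and among 36 such tests it was the only one with a Benjamini-Hochberg value (0.0455) under 0.05.

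Itgax in Trem1-/- cells was 2834 ± 2005 (SD, n = 5) in control and 858 ± 278 (SD, n = 7) in inflamed intestine. The control mice had 1596, 725, 2543, 3350 and 5956 normalised counts, and the inflamed mice lay between 399 and 1270, with a median of 922. Control mouse 2 lay inside the inflamed range and the other 4 lay above it. Itgax fell by 1.72 on the log2 scale (SE 0.61, edgeR's adjusted p = 0.0225). Without control mouse 5, the highest, the log2 fold change was -1.26 and edgeR's adjusted p was 0.105. Within the unmultiplied samples the log2 fold change was -1.08 (edgeR's adjusted p = 0.173), and within those multiplied by about 4/3 it was -2.25 (edgeR's adjusted p = 0.00259).

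Ccr7 fell in Trem1-/- cells. The control mice had 5405, 2824, 4890, 1394 and 915 normalised counts, with a mean of 3086 ± 2017 (SD, n = 5). The inflamed mice ran from 574 to 2066 with a median of 1083 and a mean of 1123 ± 514 (SD, n = 7). Control mice 4 and 5 lay within the inflamed range and the other 3 lay above it. The log2 fold change was -1.46 with an SE of 0.47 and an adjusted p of 0.0149 by edgeR, and the exact permutation p was 0.0366. The 3 high controls were unmultiplied and ran from 2824 to 5405, and the 2 low ones were multiplied by about 4/3. The summed level of the macrophage markers was 18456, 9525 and 19247 in the former and 48262 and 54497 in the latter. Its largest group means were those of Csf1r (15807), also on the monocyte list, and Cd68 (9878), and Cx3cr1 followed at 2473. The part of that sum in the Ccr7 values was not tested. Within the samples multiplied by about 4/3 the log2 fold change was -0.72 (edgeR's adjusted p = 0.306), and within the unmultiplied samples it was -1.605 (edgeR's adjusted p = 0.0205). Without control mouse 1 it was -1.16 (edgeR's adjusted p = 0.0562).

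Ccl22 in Trem1-/- cells was 983 ± 263 (SD, n = 5) in control intestine, with mice at 708, 947, 820, 1042 and 1396 normalised counts. In inflamed intestine it ran from 456 to 814 with a median of 670 and a mean of 634 ± 144 (SD, n = 7). The groups overlapped by a narrow margin, and 5 of 7 inflamed mice lay below all controls. The log2 fold change of -0.63 (SE 0.42) had an adjusted p of 0.225 by edgeR, whose model shares the spread of all intestinal samples. The exact permutation test of these mice alone gave p = 0.0101, or 0.0584 after Benjamini-Hochberg adjustment over 36 tests.

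In Trem1-/- cells, 3 of the 4 genes were called lower and 0 higher, where 49.1% of the 55 genes were called in either direction and 27.3% were called lower. The median log2 fold change was -1.59 over the 4 genes and 0.10 over all genes tested. Whether the response to inflammation differed between genotypes was tested by the interaction. It called 0 of the 4 genes, against 3.64% of all genes. The interaction of Ccr7 was -1.39 on the log2 scale (95% interval -2.83 to 0.05), with an unadjusted p of 0.058 and an adjusted p of 0.319 by edgeR. The call of Ccr7 in Trem1-/- cells and its absence in WT cells therefore do not show that the genotypes differed in it. The interactions of H2-Ab1, Itgax and Ccl22 were 0.15, 0.65 and 0.40, with intervals of -1.82 to 2.11, -1.22 to 2.53 and -0.88 to 1.68. Within the unmultiplied samples the interaction was 5.08 for H2-Ab1 (edgeR's adjusted p = 0.00141) and 3.16 for Itgax (edgeR's adjusted p = 0.0419), and within those multiplied by about 4/3 it was -1.60 and -0.85. Each of these classes held only 2 WT inflamed mice, which were the low mice 1 and 2 among the unmultiplied samples.

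**Figure D2:**
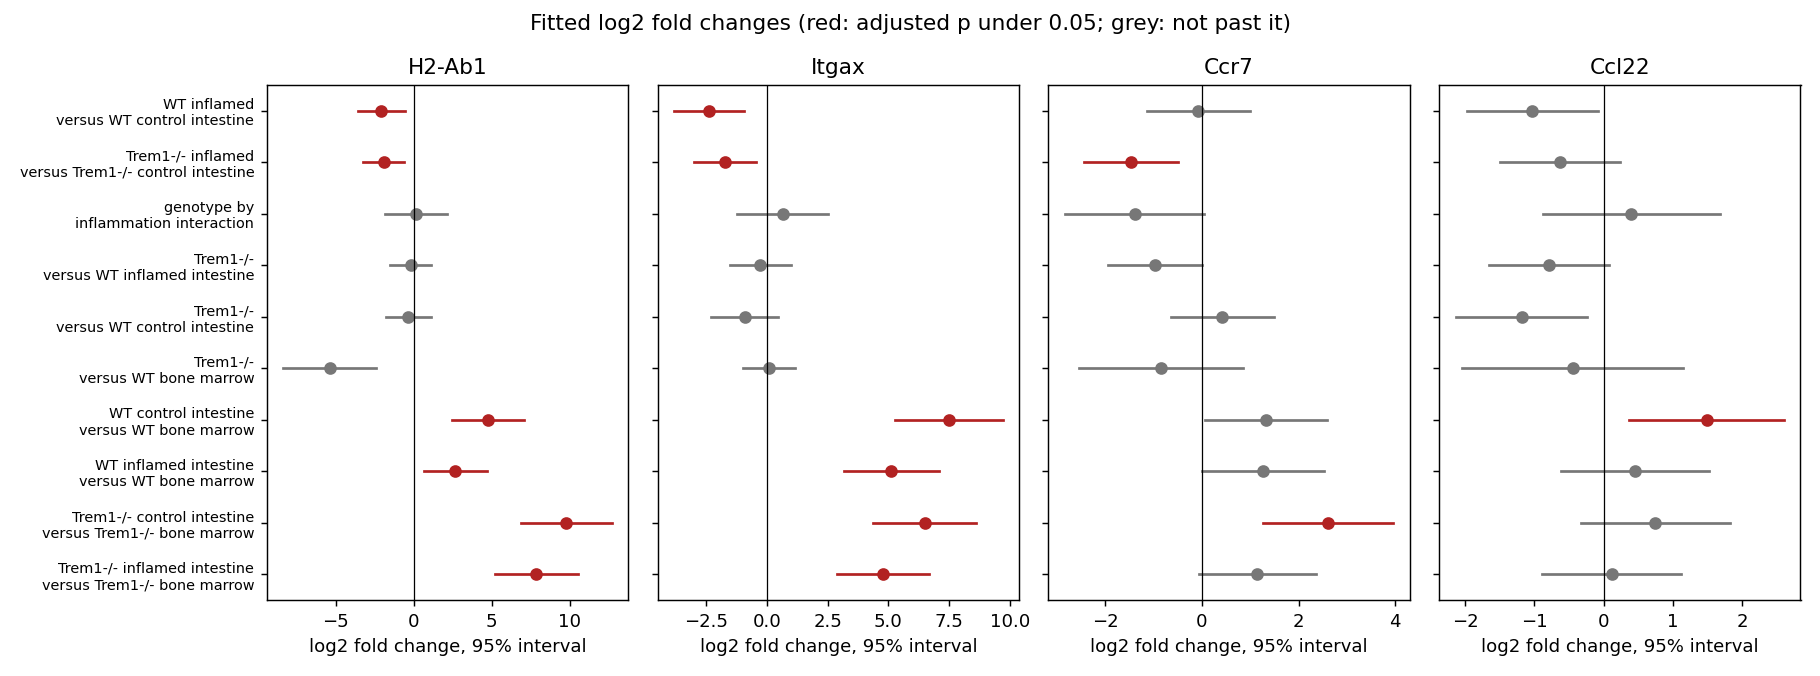
Fitted log2 fold changes of the 4 genes (points) with their 95% intervals (lines) in the 9 comparisons of 2 groups and the interaction, red where the adjusted p of edgeR is under 0.05. H2-Ab1 and Itgax are red for both comparisons with inflammation and all 4 with marrow, and the comparisons of genotypes are grey for all 4 genes.

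Genotypes were then compared directly. In inflamed intestine 0 of the 4 genes were called, against 32.7% of the 55 genes. Ccr7 was 1123 in Trem1-/- and 2185 in WT cells on average, and 4 of 7 Trem1-/- mice lay below all WT mice. Its log2 fold change was -0.96 (95% interval -1.93 to 0.01, edgeR's adjusted p = 0.115), and its exact permutation p was 0.0391, or 0.0939 after adjustment over 36 tests. Ccr7 passed with positive-control scaling (-1.80, edgeR's adjusted p = 0.00463) and within the samples multiplied by about 4/3 (-1.87, edgeR's adjusted p = 0.0273). Within the unmultiplied samples Ccr7 was at -0.60 (edgeR's adjusted p = 0.406). Ccl22 had a log2 fold change of -0.79 (95% interval -1.65 to 0.07, edgeR's adjusted p = 0.147) and passed with positive-control scaling (-1.52, edgeR's adjusted p = 0.0168). That scaling put the median of all genes at -1.21 and called 0 genes higher and 29 lower. Relative to that median Ccr7 lay at -0.60 and Ccl22 at -0.32, beside -0.68 and -0.51 with the housekeeping scaling. H2-Ab1 and Itgax had log2 fold changes of -0.20 (95% interval -1.52 to 1.13) and -0.26 (95% interval -1.53 to 1.00). The value of H2-Ab1 differed in sign between the multiplier classes. Within the unmultiplied mice it was 4.07, higher in Trem1-/- cells (edgeR's adjusted p = 0.000768), and within those multiplied by about 4/3 it was -1.08, lower in Trem1-/- cells (edgeR's adjusted p = 0.0158). The WT side was the low mice 1 and 2 in the former and mice 3 and 4 in the latter.

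In control intestine 0 of the 4 genes were called between genotypes, against 3.64% of the 55 genes. Ccl22 came nearest, at 983 in Trem1-/- and 2238 in WT cells, with a log2 fold change of -1.19 (95% interval -2.14 to -0.24, unadjusted p = 0.0169, edgeR's adjusted p = 0.0856). Of the Trem1-/- mice only mouse 1, at 708, lay below all WT mice. Without WT control mouse 5, the lowest of its group at 738, the log2 fold change was -1.41 and edgeR's adjusted p was 0.0405. Ccl22 also passed with positive-control scaling (-2.19) and with the authors' values (-1.61). The median of all genes was -1.24 with the former (0 called higher, 29 lower) and -1.02 with the latter (0 higher, 12 lower). Relative to these medians Ccl22 lay at -0.95 and -0.59, beside -0.86 with the housekeeping scaling. Itgax had a log2 fold change of -0.92 (95% interval -2.30 to 0.46), Ccr7 of 0.43 (95% interval -0.63 to 1.49) and H2-Ab1 of -0.34 (95% interval -1.78 to 1.10).

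In bone marrow, H2-Ab1 stood at 2695, 9972 and 227 normalised counts in WT mice 1 to 3 and at 152, 80.2 and 76.4 in Trem1-/- mice. The genotypes did not overlap, as for 7.41% of the 54 genes tested there, and all 6 samples lay above background. The WT mice themselves differed 43.9-fold. The log2 fold change was -5.38 with an SE of 1.32 and an unadjusted p of 0.00266, and it missed the threshold after adjustment (edgeR's adjusted p = 0.144). The exact permutation p of 0.1 is the smallest that 3 against 3 mice allow. In this comparison 0 of the 54 genes were called by edgeR and 3 had an unadjusted p under 0.05, while DESeq2 called 2. H2-Ab1 passed under 6 of 20 alternatives, among them DESeq2 and the fits without WT mouse 1, WT mouse 3 or Trem1-/- mouse 1, and without WT mouse 2 its log2 fold change was -3.83 (edgeR's adjusted p = 0.831).

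The other 3 genes gave smaller differences in marrow. Ccr7 had 925, 1427 and 378 normalised counts in WT and 452, 379 and 687 in Trem1-/- mice, with a log2 fold change of -0.85 (95% interval -2.54 to 0.84). Ccl22 had 771, 1070 and 558 in WT and 383.5, 465.8 and 908 in Trem1-/- mice, with a log2 fold change of -0.45 (95% interval -2.04 to 1.14). Both genes overlapped between genotypes. Itgax had 43.6, 23.9 and 20.5 in WT and 31.2, 13.6 and 49.3 in Trem1-/- mice, and only 1 of 3 and 2 of 3 of these lay above background. Its fitted log2 fold change of 0.09 (95% interval -0.996 to 1.18) had no stable sign.

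Cells recovered from intestine were compared with marrow monocytes of the same genotype. The labels give 100 cells per intestinal sample and no number for marrow. The 2 comparisons of each genotype share their marrow samples, so their values are set side by side. H2-Ab1 was higher in WT control cells by 4.75 on the log2 scale (SE 1.12, edgeR's adjusted p = 0.00224) and in WT inflamed cells by 2.67 (SE 0.99, edgeR's adjusted p = 0.0263). In Trem1-/- cells it was higher by 9.79 in control intestine (SE 1.42, edgeR's adjusted p = 3.65e-06) and by 7.86 in inflamed intestine (SE 1.30, edgeR's adjusted p = 9.4e-06). The larger Trem1-/- values go with the lower marrow baseline of 103 ± 42.4 (SD, n = 3) against 4298 ± 5066 (SD, n = 3) in WT mice. In WT inflamed cells the ranges overlapped, since mice 1 and 2 lay below the highest marrow mouse. That call was lost in 8 of 23 alternatives, including the fits without WT inflamed mouse 4 (2.05, edgeR's adjusted p = 0.0808), without marrow mouse 1 (2.42, edgeR's adjusted p = 0.0895) and without marrow mouse 3 (2.11, edgeR's adjusted p = 0.09). Within the unmultiplied samples, which held 1 WT marrow mouse, the value was -0.94. Within those multiplied by about 4/3 it was 3.33 (edgeR's adjusted p = 0.0281).

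Itgax was near or below background in marrow and well above it in every intestinal group. With each marrow sample held at no less than its background limit, the mean was at least 128-fold higher in WT control, 24.6-fold in WT inflamed, 70.5-fold in Trem1-/- control and 21.3-fold in Trem1-/- inflamed cells. The adjusted p of edgeR was 3.07e-06, 6.21e-05, 1.2e-05 and 6.97e-05 in that order. The lowest intestinal value, 92.9 in WT inflamed mouse 2, was 4.00 times the background limit of its sample. Within the unmultiplied samples, which held 1 WT marrow mouse, the log2 fold change of WT inflamed cells was 2.62. Within those multiplied by about 4/3 it was 6.60 (edgeR's adjusted p = 4.37e-05).

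Ccr7 and Ccl22 were already well above background in marrow, at no less than 9.43 and 11.6 times the limit. Ccr7 was higher than in marrow in Trem1-/- control cells, by 2.61 on the log2 scale (SE 0.66, edgeR's adjusted p = 0.00355). Within the unmultiplied samples, which held 1 Trem1-/- marrow mouse, this was 3.27. Within those multiplied by about 4/3 it was 1.12 (edgeR's adjusted p = 0.251). The call was also lost with positive-control scaling (1.49, edgeR's adjusted p = 0.102) and with the authors' values (0.71, limma's adjusted p = 0.402). In WT control cells the mean of Ccr7 was 2.52 times that of marrow and missed the threshold (edgeR's adjusted p = 0.0947), and without WT marrow mouse 2 the log2 fold change was 1.81 (edgeR's adjusted p = 0.0479). In WT inflamed and Trem1-/- inflamed cells the log2 fold change was 1.26 and 1.15 (edgeR's adjusted p = 0.0878 for each). Ccl22 was higher in WT control cells by 1.48 (SE 0.54, edgeR's adjusted p = 0.0344), a call that was lost in 12 of 23 alternatives. Those included the fits without WT control mouse 1 (1.10), without WT control mouse 4 (1.30), without WT marrow mouse 1 (1.46) and without WT marrow mouse 3 (1.28). In WT inflamed, Trem1-/- control and Trem1-/- inflamed cells its log2 fold change was 0.46, 0.75 and 0.11.

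Between WT control cells and marrow, 3 of the 4 genes were called higher, where 30.9% of the 55 genes were called higher. The same count was 2 against 36.4% for WT inflamed cells, 3 against 30.9% for Trem1-/- control cells and 2 against 38.2% for Trem1-/- inflamed cells. The median log2 fold change of the 4 genes was 3.12, 1.97, 4.55 and 2.96 in that order, and that of all genes was 0.61, 0.94, 0.51 and 0.31.

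**Figure D3:**
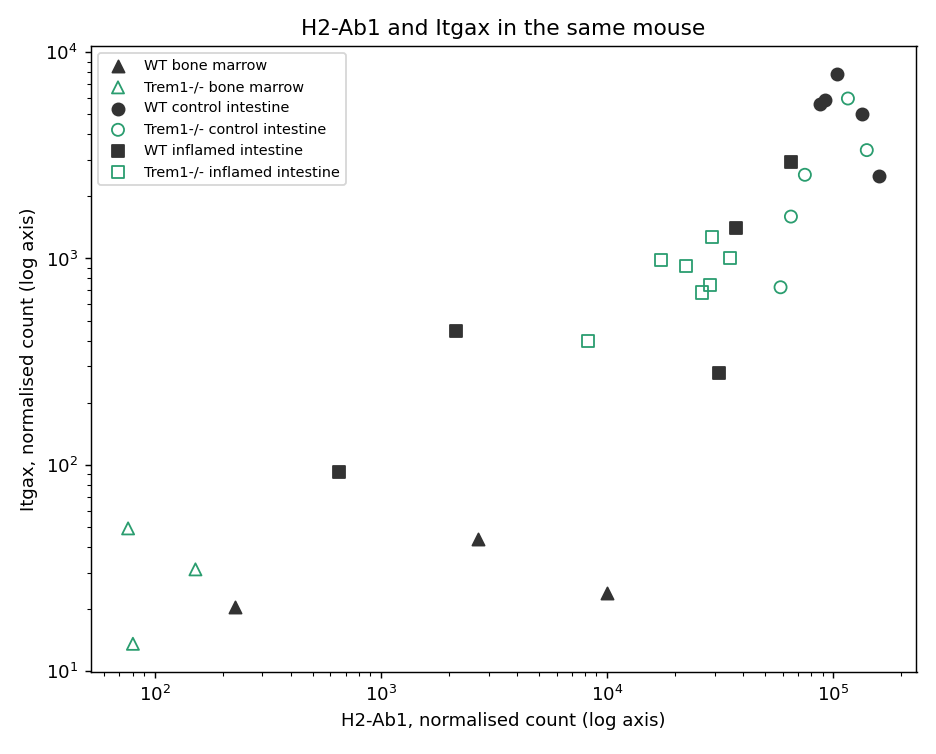
H2-Ab1 against Itgax in each mouse, both as normalised counts on log axes, with marrow as triangles, control intestine as circles and inflamed intestine as squares, filled for WT and open for Trem1-/-. Control intestine lies at the upper right and marrow at the bottom. On the H2-Ab1 axis WT marrow runs from 227 to 9972. WT inflamed mice 1 and 2 are the squares with the lowest H2-Ab1 (2146 and 653) and lie within that range.

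The genes whose group means were most like each of the 4 over the 6 groups were found among the other 54 genes, by Pearson's r of mean log2 levels. These r values rest on 6 points that share their housekeeping scaling and are a description. H2-Ab1 and Itgax were each other's nearest gene (r = 0.934). The next nearest to H2-Ab1 were Ccr7 (0.899) and Fcgr1 (0.894), which encodes the high-affinity IgG receptor CD64. The next nearest to Itgax were Fcgr1 (0.893) and Ccr7 (0.874). Ccr7 was nearest to H2-Ab1 (0.899), Itgax (0.874) and Nod2 (0.859), which encodes a sensor of bacterial cell wall fragments. Ccl22 had other neighbours, Tgfb1 (0.878), Spi1 (0.866) and Csf1r (0.831), which encode a regulatory cytokine, the myeloid transcription factor PU.1 and the receptor of the growth factor CSF1. Chil3, a chitinase-like gene of monocytes, had the lowest r with H2-Ab1 (-0.847) and Itgax (-0.954).

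Other genes of antigen presentation and dendritic cells were counted from 3 lists. Of 12 genes of costimulation and antigen presentation, Cd80 and Cd86, which encode ligands of the T cell receptor CD28, had values. Both were called higher than in marrow in all 4 comparisons, where 30.9% to 38.2% of all genes were called higher. Cd80 was higher by 1.42 to 3.13 and Cd86 by 1.59 to 2.22 on the log2 scale. In WT control cells these calls passed under 18 and 15 of 23 alternatives, and that of Cd86 was lost without WT control mouse 3 (1.30), marrow mouse 1 (1.22) or marrow mouse 3 (1.74). Unlike H2-Ab1, Cd80 rose with inflammation in WT cells, by 1.71 on the log2 scale (SE 0.28, edgeR's adjusted p = 3.76e-05), where 25.5% of all genes were called higher. In Trem1-/- cells the value was 0.23 (edgeR's adjusted p = 0.55), and the interaction of Cd80 was called at -1.48 (edgeR's adjusted p = 0.0213). The rise passed under 24 of 25 alternatives. The interaction kept its sign under all 37 alternatives and passed under 28 of them. It was lost without WT control mouse 2 (-1.39), WT inflamed mouse 2 (-1.26), WT inflamed mouse 5 (-1.40) or Trem1-/- control mouse 2 (-1.35), with edgeR's adjusted p between 0.0513 and 0.0619. It was also lost with TMM scaling (-1.35), with positive-control scaling (-1.24), with the authors' values (-1.16) and within the samples multiplied by about 4/3 (-0.91). In inflamed intestine Cd80 was lower in Trem1-/- than in WT cells by 1.58 (edgeR's adjusted p = 0.000101), as called under all 27 alternatives, where 23.6% of all genes were called lower. Cd86 was not called with inflammation, with log2 fold changes of 0.57 in WT and 0.28 in Trem1-/- cells. The list median with inflammation was 1.14 in WT and 0.25 in Trem1-/- cells, beside -0.08 and 0.10 over all genes.

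Of 16 genes of dendritic cell lineage and growth, 6 were on the panel and 3 had values. Irf4, which encodes a transcription factor of dendritic cells and macrophages, fell with inflammation in WT cells by 1.07 (edgeR's adjusted p = 0.00923) and in Trem1-/- cells by 0.81 (edgeR's adjusted p = 0.0274). The Irf4 call passed under 22 of 25 alternatives in WT and 17 of 27 in Trem1-/- cells, where it was lost without any 1 of control mice 3 and 5 or inflamed mice 2, 3 and 5 (-0.78 to -0.72) and where the authors' values gave 0.028. The other 2 genes with values encode subunits of the alternative NF-kappaB pathway, and neither was called with inflammation. Of these, Nfkb2 was lower in Trem1-/- than in WT cells, with log2 fold changes of -1.22 in inflamed (edgeR's adjusted p = 0.000979) and -1.10 in control intestine (edgeR's adjusted p = 0.0207), where 3.64% of all genes were called lower. It was called under 25 of 27 and 16 of 25 alternatives, with TMM scaling among the losses in each (-0.64 and -0.59), and in control intestine it was lost without any 1 of WT mice 2 and 3 or Trem1-/- mice 2, 3 and 4 (-1.08 to -0.85). Nfkb2 was also higher than in marrow in WT control (1.07) and WT inflamed cells (1.23), under 12 and 19 of 23 alternatives, and the former was lost without WT control mouse 3 (0.82), marrow mouse 1 (0.91) or marrow mouse 3 (0.79). The list median was 0.16 in WT and 0.04 in Trem1-/- cells. Of 13 chemokines and receptors of dendritic and T cell traffic, 6 had values. With inflammation, 4 of these 6 fell in WT cells, and 3 fell and 1 rose in Trem1-/- cells. Of all genes, 21.8% fell in WT cells, and 27.3% fell and 21.8% rose in Trem1-/- cells. Cx3cr1, the fractalkine receptor of gut macrophages, fell by 3.70 in WT (edgeR's adjusted p = 0.000308) and by 4.82 in Trem1-/- cells (edgeR's adjusted p = 2.99e-06). Cxcl9, an interferon-induced T cell chemokine, fell by 4.57 and by 3.30, and Ccr2, the receptor of monocyte chemokines, by 1.73 and by 1.12. Cxcl11 fell in WT cells by 2.28, and Cxcl10 rose in Trem1-/- cells by 1.71, both of them further interferon-induced chemokines. The falls of Cx3cr1 passed under all 25 and 27 alternatives and those of Cxcl9 under 24 of 25 and 25 of 27. Cxcl11 passed under 14 of 25 and was lost without WT control mouse 2 (-1.80) or without any 1 of WT inflamed mice 2 to 5 (-2.16 to -2.03). Cxcl10 passed under 23 of 27 and was lost without Trem1-/- control mouse 1 (1.46) or 2 (1.54), and within the samples multiplied by about 4/3 its value was 0.0067. Ccr2 passed under 23 of 25 in WT cells and 14 of 27 in Trem1-/- cells, where it was lost without any 1 of control mice 3 to 5 or inflamed mice 1 to 4 (-1.18 to -0.93). The list median was -2.003 in WT and -1.06 in Trem1-/- cells. Against marrow, Cxcl9 was higher in WT control (5.27) and Trem1-/- control cells (4.68), and Cxcl10 in Trem1-/- control (4.51) and Trem1-/- inflamed cells (6.22). Cx3cr1 and Ccr2 were lower than in marrow in WT inflamed (-4.78 and -2.10) and Trem1-/- inflamed cells (-5.76 and -1.37), where 12.7% and 20% of all genes were called lower. Without Trem1-/- marrow mouse 3 the value of Ccr2 in Trem1-/- inflamed cells was -1.31 (edgeR's adjusted p = 0.0556), and within the unmultiplied samples that of Cx3cr1 in WT inflamed cells was -1.29 (edgeR's adjusted p = 0.331).

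Part of each value rests on the scaling between samples. Over 7 other scalings or value sets, the median change of all genes with inflammation shifted by -0.47 to 0.58 in WT and by -0.35 to 0.91 in Trem1-/- cells. Relative to the median of all genes, H2-Ab1 lay at -2.005 in WT cells with the housekeeping scaling (range over the others -3.42 to -1.71) and at -2.03 in Trem1-/- cells (-2.10 to -1.92). Itgax lay at -2.30 in WT (-3.15 to -2.09) and at -1.82 in Trem1-/- cells (-1.98 to -1.59). Ccr7 lay at 0.0063 in WT (-0.0037 to 0.0443) and at -1.56 in Trem1-/- cells (-1.79 to -1.35). Ccl22 lay at -0.95 in WT (-1.06 to -0.92) and at -0.73 in Trem1-/- cells (-0.75 to -0.67). The positive controls as scaling ended the calls of H2-Ab1 and Itgax in WT cells (log2 fold changes -1.47 and -1.95, edgeR's adjusted p = 0.141 and 0.0855) and of H2-Ab1, Itgax and Ccr7 in Trem1-/- cells (-1.50, -1.42 and -0.80). The authors' normalised values, tested with limma, ended the same 3 calls in Trem1-/- cells (-1.09, -0.59 and -0.39). Limma on the housekeeping-normalised levels ended those of H2-Ab1 (-1.97, limma's adjusted p = 0.0537) and Itgax (-1.47, limma's adjusted p = 0.0621) in Trem1-/- cells.

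**Figure D4:**
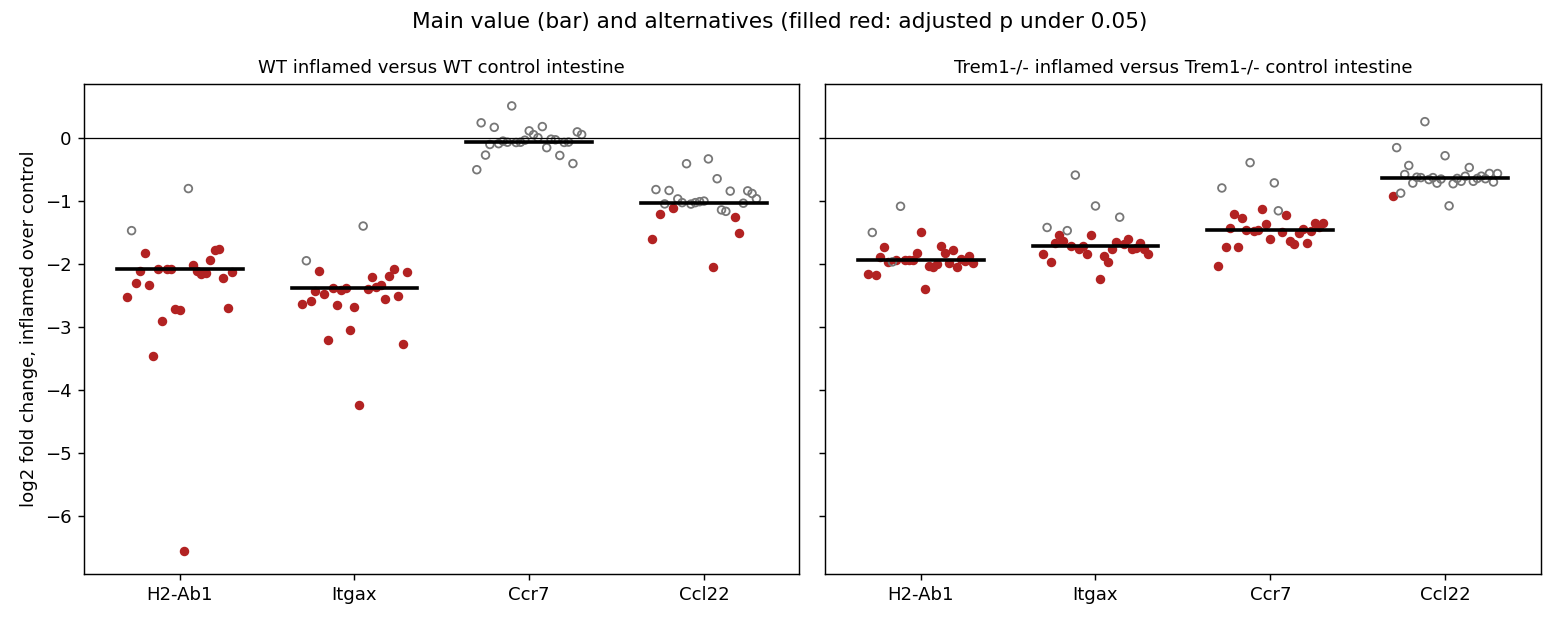
Log2 fold changes of inflamed over control cells for the 4 genes, with the main value as a bar and each alternative as a point, filled red where the adjusted p is under 0.05. All points of H2-Ab1 and Itgax lie below 0 in both genotypes, those of Ccr7 lie on both sides of 0 in WT cells and below it in Trem1-/- cells, and 1 point of Ccl22 lies above 0 in Trem1-/- cells.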

How the data were processed

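Barcode counts were measured on a NanoString panel in sorted cells of 28 samples in 6 groups. Per the labels' protocols, cDNA made right after sorting was amplified over the panel's targets and hybridised with barcoded probe pairs. The deposited raw table holds counts per probe in 14 samples. In the other 14 the authors' values are estimated counts (expected counts), each a whole number times about 4/3 or 2, within a tolerance of 0.0001. The reason is not stated there. The authors' deposited normalised values are a score of unstated unit, namely the raw values of a sample times 1 factor between 0.407 and 3.12. The software that counted barcodes is not given in the sources used here.

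Multipliers were divided out, which gave whole counts for the test, and counts were scaled by a sample factor, the geometric mean of 3 housekeeping genes (Actb, Gapdh, Rpl19) over its mean across samples. Genes above background (mean of 5 negative control probes plus 2 SD) in at least 3 samples of a fit were tested two-sided in edgeR 4.0.16 (R 4.3.3; quasi-likelihood test), Benjamini-Hochberg adjusted over all of them, threshold 0.05. Of the 10 comparisons, those among intestinal groups used 1 fit of 22 samples, the marrow comparison 6 samples, and intestine against marrow all 28. The SE is the size of the log2 fold change over the square root of F. Exact two-sided permutation tests of mean log2 levels were adjusted over 36 tests. DESeq2 1.42.0 and limma 3.58.1 (log2 of value plus 1) gave alternatives, and edgeR was tested on simulated data. Tables and figures were made in Python 3.11.15 (scipy 1.17.1; matplotlib 3.10.9; numpy 2.4.6; pandas 2.3.3).

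The 4 genes, the gene lists and the tests were chosen with earlier results of these data known, and the lists are not independent evidence. The 4 genes are named in every comparison, listed genes beside their counts, mostly where they passed the threshold, and for each of the 4 the 3 genes of highest r. Total gene counts ran from 720570 to 1625959 per sample. They follow amplification without molecular identifiers, so they bear on counting error only. Deviations from the group means correlated between same-numbered samples of WT and Trem1-/- marrow (0.20 to 0.79 in 3 of 3 pairs). Between WT inflamed and Trem1-/- control intestine all 5 such correlations were positive too (0.0061 to 0.416). Every other comparison of 2 groups held a negative one. Correlations between samples of unlike number were not computed. In both marrow groups mouse 1 was unmultiplied and mice 2 and 3 were multiplied. Whether the numbers pair the marrow samples was therefore not tested. A block on the number did not change the marrow call of any of the 4 genes.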

Additional observations from a re-analysis of the deposited data

How the results depend on the processing

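Each value of the 4 genes was recomputed under the alternatives, which gave 1016 values. Of these, 896 kept their direction and their side of the threshold, 39 kept the direction but no longer passed, 26 kept the direction and newly passed, and 55 turned sign, with or without passing. Under every alternative H2-Ab1 and Itgax were lower in inflamed than in control cells of both genotypes, and H2-Ab1, Itgax and Ccr7 were higher in every intestinal group than in marrow, except H2-Ab1 in WT inflamed cells within the unmultiplied samples (-0.94). The causes of the changes below were not tested. Signs are inflamed minus control, Trem1-/- minus WT and intestine minus marrow, on the log2 scale.

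Scaling by TMM turned the genotype values in inflamed cells to 0.27 for H2-Ab1 and 0.21 for Itgax, and Ccl22 against marrow to -0.44 in WT inflamed and -0.56 in Trem1-/- inflamed cells. It left 9 genes called between genotypes in inflamed and 0 in control intestine, against 18 and 2. Positive-control scaling turned Ccr7 with inflammation in WT cells to 0.24, the interaction of H2-Ab1 to -0.029, the genotype values of Ccr7 in control cells to -0.77 and of Itgax in marrow to -0.49, and Ccl22 against marrow to -0.17 in Trem1-/- control and -0.32 in Trem1-/- inflamed cells. It called 17 genes with inflammation in WT cells against 26, 1 in the interaction against 2, 29 between genotypes in inflamed and 29 in control intestine, 2 in marrow against 0, and 11 between WT control cells and marrow against 19. Without Rpl19, Ccr7 with inflammation in WT cells was 0.17 and the genotype value of Itgax in marrow -0.16, with 4 genes called between genotypes in control intestine and 1 in marrow. Without Actb, Ccl22 in Trem1-/- inflamed cells against marrow was -0.015. With inflammation the calls split into 14 higher and 12 lower in WT and 12 and 15 in Trem1-/- cells. TMM made this 11 and 18, and 10 and 19. The positive controls made it 14 and 3, and 15 and 4. The authors' values made it 16 and 6, and 18 and 2.

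DESeq2 gave genotype values in inflamed cells of 0.25 for H2-Ab1 and 0.23 for Itgax, and Ccl22 against marrow at -0.60 in WT inflamed and -0.63 in Trem1-/- inflamed cells. It called 8 genes in the interaction and 2 in marrow. Limma on the housekeeping-normalised levels gave genotype values of 1.12 for H2-Ab1 and 0.58 for Itgax in inflamed cells and -0.007 for Itgax in marrow. On the authors' normalised values limma gave 0.51 for Ccr7 with inflammation in WT cells, 0.26 for Ccl22 in Trem1-/- cells, genotype values of 0.78 for H2-Ab1 and 0.24 for Itgax in inflamed and of -0.39 for Ccr7 in control cells, and Ccl22 against marrow at -0.82 in Trem1-/- control and -0.56 in Trem1-/- inflamed cells. It called 0 genes in the interaction, 12 between genotypes in control intestine and 8 between WT control cells and marrow.

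With the mouse number as a replicate block, the genotype value of H2-Ab1 was 0.25 in inflamed cells and that of Itgax -0.016 in marrow, where H2-Ab1 was -4.21 (edgeR's adjusted p = 0.104). The block called 1 gene in the interaction, 1 between genotypes in control intestine and 0 in marrow. In marrow the block changed no call of the 4 genes. Elsewhere it let Ccr7 against marrow pass in WT control (1.58), WT inflamed (1.54) and Trem1-/- inflamed cells (1.70), and the interaction of Cd80 was -1.42 and no longer passed. With the multiplier class as a block, Ccr7 with inflammation in WT cells was 0.11 and the genotype value of H2-Ab1 in inflamed cells 0.37, with 4 genes called in the interaction and 6 between genotypes in control intestine. Within the unmultiplied samples, Ccr7 with inflammation in WT cells was 0.051 and the genotype values in inflamed cells were 4.07 for H2-Ab1 and 1.51 for Itgax. There 16 genes were called in the interaction, 11 between genotypes in control intestine and 12 between control cells and marrow in each genotype. Within the samples multiplied by about 4/3, Ccr7 with inflammation in WT cells was 0.0025, the interaction was -1.60 for H2-Ab1 and -0.85 for Itgax, and the genotype values were 0.045 for Ccl22 in inflamed and 0.52 for H2-Ab1 and -1.15 for Ccr7 in control cells. Ccl22 against marrow was -0.54 in WT inflamed and -0.25 in Trem1-/- inflamed cells, and 0 genes were called in the interaction and 13 between genotypes in control intestine. The unmultiplied samples held 1 marrow mouse of each genotype, so the marrow comparison was not run within them.

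Leaving out 1 mouse at a time gave ranges of -0.41 to 0.18 for Ccr7 with inflammation in WT cells, -0.17 to 0.76 for the interaction of H2-Ab1, and, between genotypes, -0.51 to 0.42 for H2-Ab1 and -0.56 to 0.63 for Itgax in inflamed cells and -0.11 to 0.45 for Itgax in marrow. Ccl22 against marrow ranged from -0.025 to 0.72 in WT inflamed and from -0.12 to 0.58 in Trem1-/- inflamed cells. The genes called ranged from 1 to 4 in the interaction, from 1 to 6 between genotypes in control intestine, from 0 to 2 in marrow and from 12 to 24 between WT control cells and marrow. The background limits Itgax in marrow, which lay near or below it. Ccr7 and Ccl22 lay at least 8.25 times above background in all samples.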
